A study of Mus musculus with 6 samples.

Results

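The miR-15/16 family was followed in mouse monocyte subsets through 6 of its members, mmu-miR-15a, mmu-miR-15b, mmu-miR-16, mmu-miR-195, mmu-miR-322 and mmu-miR-497. Members were taken by name among the assays for the main strand, which gave 7 of the 750 miRNA assays measured, because miR-322 had 2 assays. Monocytes were freshly isolated from 3 DBA/1 mice, each of which gave 1 Ly6Chigh (classical) and 1 Ly6Clow (non-classical) sample, so that 3 samples per subset were compared. No treatment is named for either subset in the labels, and the age of the mice is not given in the sources used here. From each sample 10 ng of RNA was profiled on TaqMan low-density arrays, with the wells split over 2 cards, named A for the first wells listed and B for the rest. The readout of a well is its threshold cycle (Ct), counted until the PCR product reaches a fixed fluorescence, so 1 cycle more means 1 log2 unit less template, and a reaction without signal is listed at 40.

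miRNAs of this family guide the silencing machinery to mRNAs that pair with their seed, the bases near the 5′ end. In many cell types the family restrains the cell cycle through mRNAs of cyclins and cyclin-dependent kinases, and lowers the survival factor BCL2. miR-15a with miR-16, and miR-15b with miR-16 again, are made from shared transcripts, as are miR-195 with miR-497 and miR-322 with miR-503. Ly6Chigh monocytes are recruited to inflamed tissue and can give rise to Ly6Clow monocytes, which patrol the vessel wall.

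The mature sequences show what the 6 members share and where they part. They were taken from RefSeq (GRCm38.p6) by name, since the array files give neither the target sequence nor the arm of an assay, and the seed (bases 2 to 8) is in capitals.
miR-16-5p: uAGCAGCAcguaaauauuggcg
miR-195a-5p: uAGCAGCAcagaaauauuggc
miR-15a-5p: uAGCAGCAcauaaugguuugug
miR-15b-5p: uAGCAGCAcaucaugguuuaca
miR-322-5p: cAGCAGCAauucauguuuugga
miR-497a-5p: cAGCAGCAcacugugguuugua
miR-503-5p: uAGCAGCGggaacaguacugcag
All 6 members carried the seed AGCAGCA, which 10 of the 1679 mature mouse miRNA names of the RefSeq table hold. miR-503, the cluster partner of miR-322, is shown for comparison and has AGCAGCG. Outside the seed the members differ, and the last 6 bases were different in each of the 6. Counted base by base from the 5′ end, miR-195a matched miR-16 at 19 of 21 positions, the most in the family. The count was 16 of 22 for miR-15a, 14 of 22 for miR-15b, 12 of 22 for miR-322 and 11 of 22 for miR-497a.

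The genes lie on 4 chromosomes. Mature miR-15a is at chr14:61632075-61632096 (minus strand), 117 bases from 1 copy of miR-16 at chr14:61631936-61631957, and both lie within the span of the long non-coding gene Dleu2. Mature miR-15b is at chr3:69009775-69009796 (plus strand), 121 bases from the other copy of miR-16 at chr3:69009918-69009939, and both lie within Smc4, which encodes a condensin subunit. An assay for miR-16 therefore reads the product of both loci, which cannot be told apart. miR-195a at chr11:70235062-70235082 and miR-497a at chr11:70234730-70234751 lie 310 bases apart on the plus strand. miR-322 is at chrX:53054306-53054327 on the minus strand, 256 bases from miR-503.

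A card that stood apart bears on every result. On card A, which holds all family assays that gave signal, the Ly6Chigh sample of mouse 1 correlated with the other 5 samples at a Spearman rho of 0.10 to 0.15, against 0.73 to 0.94 among those 5. Of 86 card A assays under 35 cycles in the other 5 samples, 46 were undetected in it, among them miR-223 and miR-142-3p, which mark myeloid cells and had Ct of 16.96 to 21.95 and 19.97 to 23.97 elsewhere. The summed level of the myeloid markers, in units of U6, was 0.0 to 15.0 in Ly6Chigh and 2.68 to 8.83 in Ly6Clow. Another miR-223 assay, on card B and named for human, was undetected in all 6 samples. Each family result is therefore given with and without the Ly6Chigh sample of mouse 1. Over both cards 146 to 294 of the 750 miRNA assays were under 35 cycles per sample, and U6, the small nuclear RNA to which the deposited values refer, ranged from 19.80 to 24.66 cycles on card A. The share of Ct within 0.05 cycles of a whole number was 81.2% to 96.3% per sample and card, so differences under about 1 cycle are at the resolution of the data, except on card B of the Ly6Clow sample of mouse 1, where it was 11.2%. In RNA from bulk samples, fewer cells of a type and less RNA per cell cannot be told apart.

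miR-16 gave the earliest signal of the family. Its Ct was 21.98 and 20.97 in the Ly6Chigh samples of mice 2 and 3 and 18.98, 17.96 and 23.00 in the Ly6Clow samples of mice 1, 2 and 3, and it was undetected in the Ly6Chigh sample of mouse 1. Ordered by Ct among the card A assays under 35 cycles, it ranked 2nd and 6th in those Ly6Chigh samples and 3rd, 2nd and 9th in the Ly6Clow samples. miR-16 was thus among the first 9 signals of the card in each sample in which it was detected.

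miR-15b and miR-15a were the members detected in all 6 samples. miR-15b had a Ct of 30.02, 25.97 and 22.99 in the Ly6Chigh samples of mice 1, 2 and 3 and of 23.98, 23.99 and 26.00 in the Ly6Clow samples. miR-15a had a Ct of 24.97, 27.98 and 24.90 in the Ly6Chigh samples and of 23.96, 23.95 and 26.96 in the Ly6Clow samples. In raw cycles the subsets overlapped for both, and the latest miR-15b signal came from the Ly6Chigh sample of mouse 1.

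miR-195, which differs from miR-16 at few bases, was undetected in the same sample as miR-16. Its Ct was 27.98 and 25.95 in the Ly6Chigh samples of mice 2 and 3 and 23.96, 23.98 and 26.96 in the Ly6Clow samples. Its signal came 3.96 to 6.02 cycles after that of miR-16 in these 5 samples, a comparison chosen after the values were seen. Cross-reaction between the assays for the 2 sequences was not tested.

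miR-322 and miR-497 were detected in few samples. The card A assay of miR-322 gave 32.03 in the Ly6Chigh sample of mouse 2 and 27.97 and 27.99 in the Ly6Clow samples of mice 1 and 2, and was undetected in the other 3 samples. Its card B assay was undetected in all 6 samples, including those in which the card A assay gave signal, and what distinguishes the 2 assays is not given in the sources used here. miR-497 was detected in both samples of mouse 2 alone, at 33.98 in Ly6Chigh and 33.01 in Ly6Clow.

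**Figure D1:**
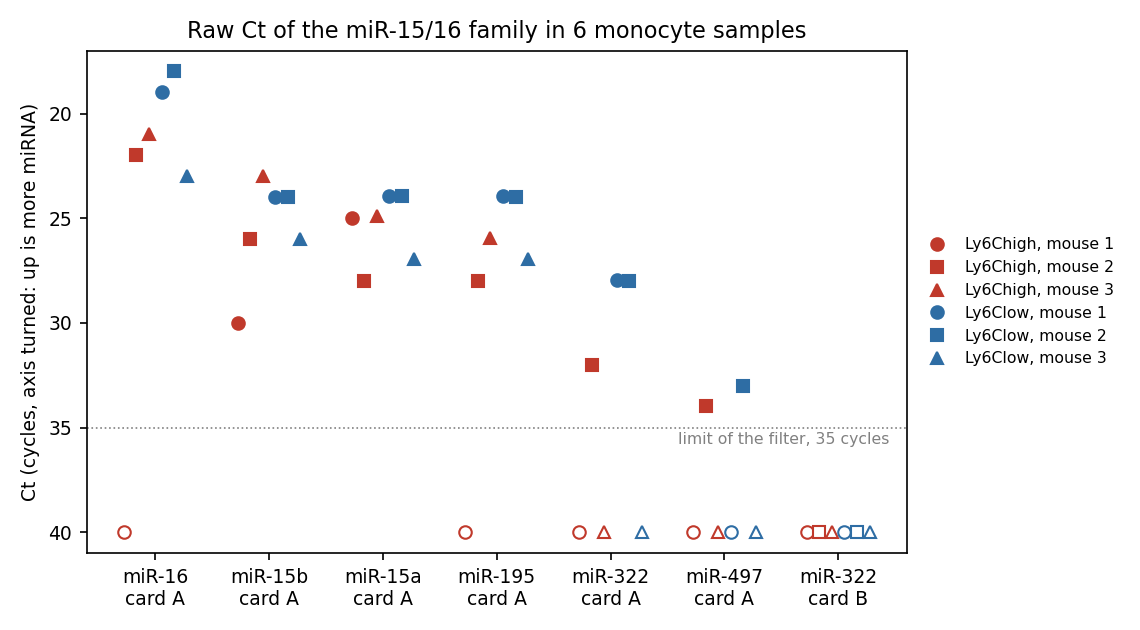
Raw Ct of each family assay in the 6 samples, with the axis turned so that earlier signal is higher; red marks Ly6Chigh, blue Ly6Clow, shapes mark the mouse, and open symbols at 40 are undetected reactions. miR-16 lies between 17.96 and 23.00 where detected, miR-15b, miR-15a and miR-195 between 22.99 and 30.02, and the open circles show the Ly6Chigh sample of mouse 1 undetected for miR-16 and miR-195.

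The values were next set against U6 of the same sample and card, as log2 expression (minus ΔCt). In the Ly6Clow samples miR-16 averaged 0.85 ± 1.94, miR-15b -3.83 ± 0.52, miR-15a -4.13 ± 0.93 and miR-195 -4.14 ± 0.91 (SD, n = 3). miR-16 stood above the others by more than these spreads, whereas the means of miR-15b, miR-15a and miR-195 lay within 1 SD of each other. Levels of different assays also reflect the efficiency of each assay, so the order is that of the signals.

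No member differed between the subsets past the threshold. By limma with Benjamini-Hochberg adjustment over the 201 assays that were under 35 cycles in 3 samples or more, 0 of the 5 family assays tested had an adjusted p of 0.05 or less, and over all assays the share was 0.0%. At an unadjusted p under 0.05 the family again had 0 of 5, against 0.995% of all tested assays. The subsets overlapped for all 5, whereas they did not overlap for 5.47% of the tested assays. The assays of miR-497 and the card B assay of miR-322 did not pass the filter on Ct.

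miR-15b had a log2 expression of -7.36, -1.31 and -2.21 in the Ly6Chigh samples of mice 1, 2 and 3 and of -4.18, -3.23 and -4.08 in the Ly6Clow samples. The Ly6Chigh samples of mice 2 and 3 lay above all 3 Ly6Clow samples and that of mouse 1 below them. Over all samples the difference was 0.2 ± 2.05 (limma SE, 95% interval -4.84 to 5.23, adjusted p 0.985, exact permutation p 1.0). Without the Ly6Chigh sample of mouse 1 it was 2.06 ± 0.86 (interval -0.27 to 4.39, limma adjusted p 0.965), and the exact permutation p of 0.2 was the smallest that 2 samples against 3 can give. With the Ly6Chigh sample of mouse 1 kept, the difference of miR-15b was -0.96 without that of mouse 2 and -0.51 without that of mouse 3.

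Within mice, miR-15b was higher in Ly6Chigh by 1.91 in mouse 2 and by 1.86 in mouse 3, while the log2 difference was -3.18 in mouse 1. It was the single member, of the 4 with signal in both samples of mice 2 and 3, that was higher in Ly6Chigh in both of these mice, as were 41.6% of the tested card A assays with signal in both samples of both mice. It was likewise the single member of the 5 whose subsets did not overlap once the Ly6Chigh sample of mouse 1 was left out, a pattern with higher values in Ly6Chigh found in 22.8% of the tested card A assays. Leaving out that sample, the unadjusted limma p was 0.0705, so none of the family was under 0.05, against 1.99% of all tested assays. With mouse 1 left out altogether and the mouse as a replicate block, miR-15b differed by 1.89 ± 0.22 (SE, unadjusted p 0.0224, adjusted p 0.443), the single family assay under 0.05 there, against 7.96% of all tested assays. That fit rests on 2 mice, with 1 residual degree of freedom and Ct in steps of about 1 cycle. Its SE and p are therefore a poor measure of the spread between mice. The shift of miR-15b thus went with that of many card A assays, the median of which was 0.89 without the Ly6Chigh sample of mouse 1, and miR-15b lay 1.17 above this median, 24th of 127.

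miR-15a had a log2 expression of -2.31, -3.32 and -4.13 in the Ly6Chigh samples and of -4.15, -3.19 and -5.04 in the Ly6Clow samples. The subsets overlapped, with the highest value in the Ly6Chigh sample of mouse 1 and the lowest in the Ly6Clow sample of mouse 3. The difference was 0.88 ± 1.47 (limma SE, 95% interval -2.72 to 4.47, adjusted p 0.985, exact permutation p 0.4). Without the Ly6Chigh sample of mouse 1 it was 0.40 ± 0.98 (interval -2.24 to 3.05, limma adjusted p 0.997). Within mice the differences were 1.85, -0.13 and 0.91, and the one in mouse 2 was smaller than the step of 1 cycle.

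miR-16 had a log2 expression of 2.67 and -0.20 in the Ly6Chigh samples of mice 2 and 3 and of 0.83, 2.80 and -1.08 in the Ly6Clow samples, with the Ly6Chigh sample of mouse 1 at its floor of -17.34. Where detected, the subsets overlapped, and the mice lay further apart than the subsets. The fitted difference was -5.81 ± 5.37 (limma SE, 95% interval -18.98 to 7.37, adjusted p 0.985, exact permutation p 0.6), a value set by the floor. Without that sample it was 0.38 ± 1.68 (interval -4.17 to 4.93, limma adjusted p 0.997), and within mice 2 and 3 the differences were -0.13 and 0.88.

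miR-195 had a log2 expression of -3.32 and -5.18 in the Ly6Chigh samples of mice 2 and 3 and of -4.16, -3.22 and -5.04 in the Ly6Clow samples, with the same floor of -17.34 in the Ly6Chigh sample of mouse 1. In mice 2 and 3 the paired samples lay next to each other, at differences of -0.11 and -0.14. The fitted difference of -4.48 ± 3.87 (limma SE, adjusted p 0.985, exact permutation p 0.4) moved to -0.11 ± 1.10 (95% interval -3.10 to 2.87, limma adjusted p 0.997) without that sample.

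miR-322 on card A had a log2 expression of -7.37 in the Ly6Chigh sample of mouse 2 and of -8.17 and -7.23 in the Ly6Clow samples of mice 1 and 2, with floors of -17.34 to -19.23 in the other 3. Mouse 2 was the single mouse with signal in both subsets and differed by -0.14. The fitted difference of -3.49 ± 4.35 (limma SE, adjusted p 0.985, exact permutation p 0.6) was -2.14 ± 5.32 (limma adjusted p 0.997) without the Ly6Chigh sample of mouse 1, and both rest on floors. miR-497 was higher in Ly6Chigh by 2.93 in mouse 2, the mouse in which it had signal, and was not tested.

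**Figure D2:**
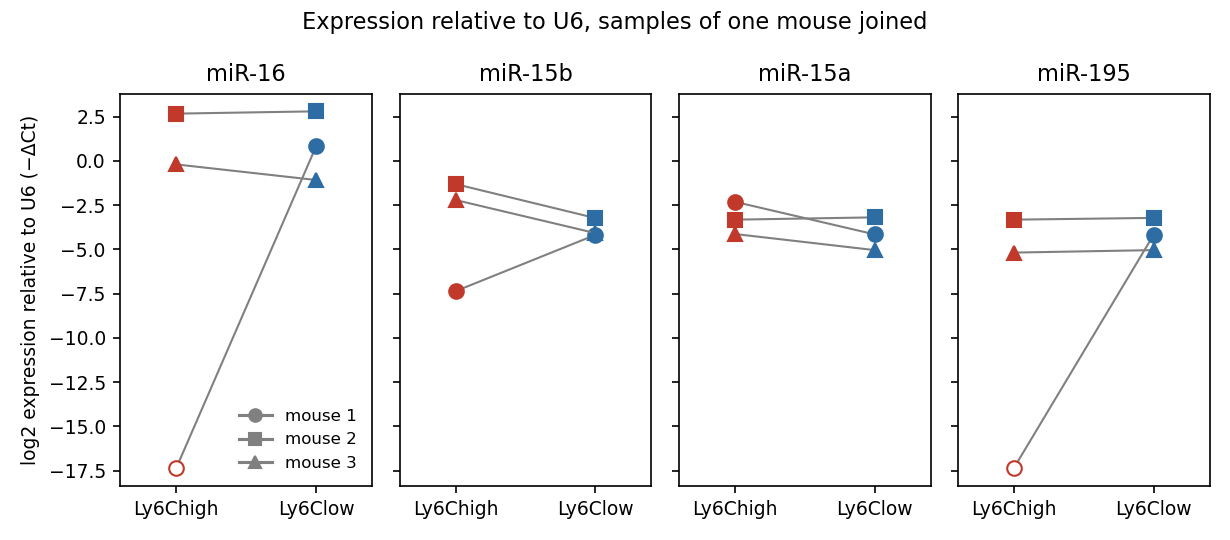
Log2 expression relative to U6 of the 4 members detected in at least 5 samples, with lines joining the Ly6Chigh (red) and Ly6Clow (blue) sample of 1 mouse and open symbols for undetected reactions. The lines of mice 2 and 3 fall from Ly6Chigh to Ly6Clow for miR-15b and are nearly level for miR-195, while mouse 1 goes the other way for miR-15b and starts at -17.34 for miR-16 and miR-195.

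The same values in raw cycles show what U6 contributes. In mouse 2 the Ct of miR-15a, miR-16, miR-195 and miR-322 was 4.00 to 4.04 cycles later in Ly6Chigh, and that of U6 was 3.89 cycles later, which leaves differences near 0. miR-15b was 1.98 cycles and miR-497 0.97 cycles later in the same mouse. In mouse 1 the shift was 1.01 cycles for miR-15a and 6.04 for miR-15b, with U6 at 2.86, so neither moved as U6 did. In mouse 3 all 4 members with signal came earlier in Ly6Chigh, with a Ct shift of -3.01 for miR-15b, -2.06 for miR-15a, -2.02 for miR-16 and -1.01 for miR-195, and U6 shifted by -1.15 cycles. The family members kept this order between them on either scale, since U6 shifts all assays of a card together.

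The within-mouse differences were set against those of the tested card A assays detected in both samples of a mouse. miR-15b was at the upper quartile in mouse 2 and above it in mouse 3, and miR-195 was near the lower quartile in both mice. The card A median was 0.88 in mouse 2 (quartiles -0.11 and 1.89, 99 assays) and 0.83 in mouse 3 (quartiles -0.15 and 0.87, 110 assays). In mouse 2, miR-15a, miR-16, miR-195 and miR-322 lay in the same step as the lower quartile. miR-497, which was not itself a tested assay, lay above the upper one. In mouse 3, miR-15a and miR-16 were at 0.91 and 0.88, in the same step of 1 cycle as both the median and the upper quartile. In mouse 1, where 50 assays were detected in both samples, the quartiles were further apart, at -1.16 and 3.9, with miR-15b below and miR-15a between them.

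**Figure D3:**
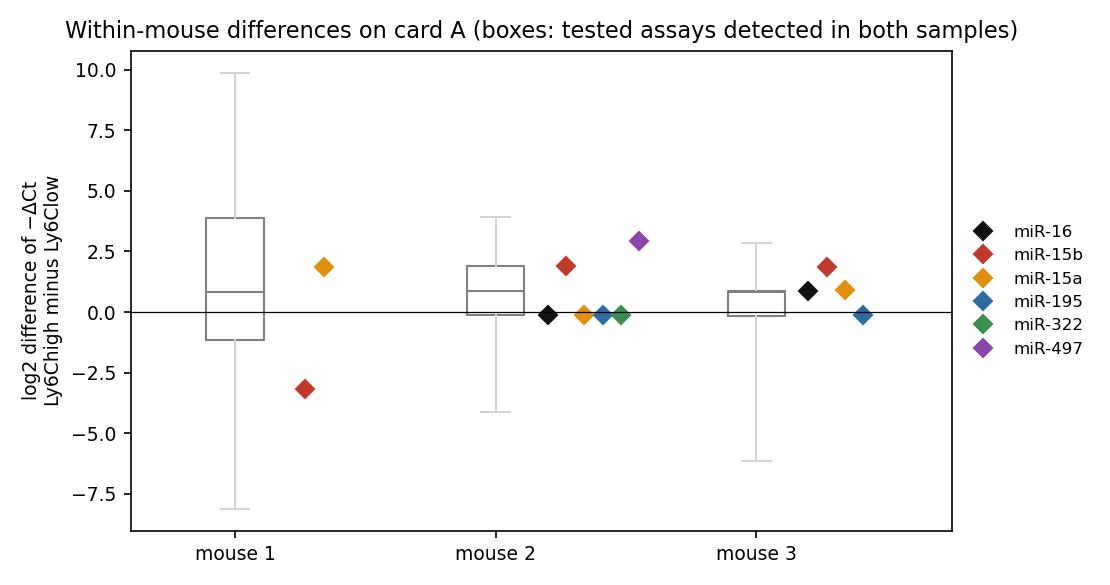
Log2 difference of Ly6Chigh minus Ly6Clow within each mouse on card A; boxes show the quartiles and median of the tested assays detected in both samples, whiskers their full range, and diamonds the family members detected in both, including miR-497, which was not tested. miR-15b is at 1.91 and 1.86 in mice 2 and 3 and at -3.18 in mouse 1, while miR-195 is just below 0 in mice 2 and 3.

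Over all samples, the median difference of the 5 tested members was -3.49, beside -0.45 for all 201 assays and -1.14 for card A. Without the Ly6Chigh sample of mouse 1 these medians were 0.38, 0.63 and 0.89. Relative to the card A median, all 6 samples gave 2.01 for miR-15a, 1.34 for miR-15b, -4.67 for miR-16, -3.34 for miR-195 and -2.35 for miR-322. U6, the global mean and no normalization must give the same relative values, since they differ by a shift of all assays of a card together. Quantile normalization gave 1.84, 1.61, -4.62, -3.63 and -2.51 in the same order. With U6 and without the Ly6Chigh sample of mouse 1, the relative values were -0.49, 1.17, -0.51, -1.01 and -3.03. Between the U6 values with and without that sample, the sign changed for miR-15a and not for the other 4 members.

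Members made from a shared transcript were compared within a sample, where U6 plays no part. Less of the first miRNA gives a negative value in cycles. miR-15a less miR-16 was -5.99 and -3.93 in the Ly6Chigh samples of mice 2 and 3, and -4.98, -5.99 and -3.96 in the Ly6Clow samples of mice 1, 2 and 3. In mice 2 and 3 the distance was alike in both subsets, with a change of 0.00 and 0.03 cycles, while it differed between mice. miR-15b less miR-16 was -3.98 and -2.01 in those Ly6Chigh samples and -5.00, -6.03 and -3.00 in the Ly6Clow samples, so that it was closer to miR-16 in Ly6Chigh by 2.04 cycles in mouse 2 and by 0.99 in mouse 3. Without the Ly6Chigh sample of mouse 1 the changes between subsets were 0.02 and 1.68 cycles (exact permutation p 0.8 and 0.4, both 0.8 after adjustment over these 2 tests), and with it, where miR-16 is at its floor, p was 0.4 and 0.2 (both 0.4 after adjustment).

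miR-195 and miR-497 were both detected in 2 samples and miR-322 and miR-503 in 1, so these pairs were not tested. A pair chosen after its values were seen, miR-15b against miR-15a, is given as a description. miR-15b came earlier than miR-15a by 2.01 and 1.92 cycles in the Ly6Chigh samples of mice 2 and 3, with differences of -0.02, -0.03 and 0.97 in the Ly6Clow samples and of -5.05 in the Ly6Chigh sample of mouse 1. miR-15a and miR-195, a pair likewise chosen after its values were seen, had the same Ct within 0.02 cycles in 4 samples. They were 1.05 cycles apart in the Ly6Chigh sample of mouse 3. As most Ct lie near whole numbers, the same Ct means the same step of 1 cycle.

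**Figure D4:**
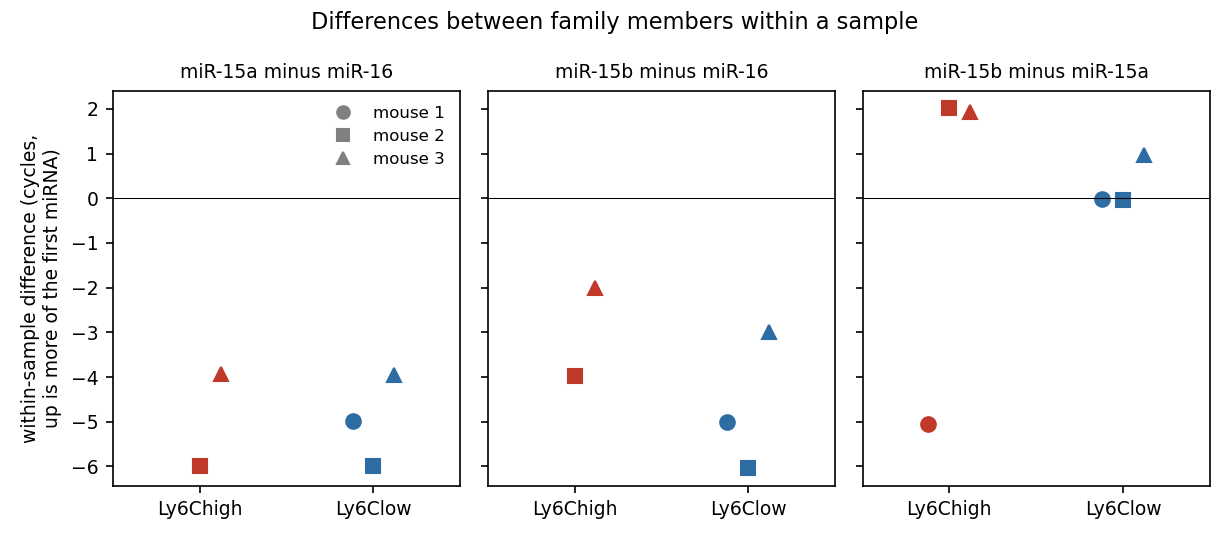
Within-sample difference in cycles between 2 family members in samples in which both were detected, by subset (Ly6Chigh red, Ly6Clow blue) and mouse (shape), where higher values mean more of the first miRNA. miR-15a minus miR-16 is the same in both subsets of mice 2 and 3, and miR-15b minus miR-16 is higher in Ly6Chigh by 2.04 and 0.99 cycles.

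Relatives of the family added little signal. Of the 6 assays for opposite strands, for miR-503 and for members of other species, 2 passed the filter, both on card B, and 0 passed the threshold. miR-503 was detected in the Ly6Clow sample of mouse 1 alone, at 30.99, and the opposite strand of miR-16 in the Ly6Clow sample of mouse 2 alone, at 30.94. The opposite strand of miR-15a was detected in 3 samples at 31.98 to 34.97 and differed by -0.90 ± 2.83 (limma SE, adjusted p 0.985), or by -0.31 ± 3.32 without the Ly6Chigh sample of mouse 1 (limma adjusted p 0.997). The opposite strand of miR-503 had a Ct of 29.91, 30.96 and 30.99 in the Ly6Chigh samples and of 28.02 and 27.95 in the Ly6Clow samples of mice 1 and 2, was undetected in that of mouse 3, and differed by 3.25 ± 3.22 (limma adjusted p 0.985), or by 2.64 ± 3.88 without the same sample (limma adjusted p 0.997).

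Other miRNAs known for roles in the cell cycle gave no call either. Among 9 assays of miRNAs that restrain it, of the miR-34, miR-449 and miR-26 families, 2 were tested and 0 passed. miR-26a and miR-26b differed by -0.46 and -1.46 over all samples, by 0.22 and -0.11 without the Ly6Chigh sample of mouse 1, and by -0.10 to -0.15 within mice 2 and 3, close to the values of miR-195. Of 9 assays of miRNAs that promote it, miR-17, miR-20a, miR-20b, miR-93, miR-106a, miR-106b, miR-221 and miR-222 were tested and 0 passed. All 8 were undetected in the Ly6Chigh sample of mouse 1, so their values over all samples rest on its floor. Their median was then -3.48 with 0 of 8 above 0, beside 36.2% of the tested card A assays. With the Ly6Chigh sample of mouse 1 left out it was 1.21 with 8 of 8 above 0, beside 78.7% of those assays. miR-221 was also undetected in both samples of mouse 2, so its value there, 0.73 ± 5.13 (limma SE), still rests on floors.

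Markers of other cells were read beside miR-16, which red cells also hold. Of the 3 red cell markers, miR-486 and miR-144 were undetected in all 6 samples, and miR-451 was detected in 5 samples at 30.94 to 32.98 cycles. Their summed level, in units of U6, was 0 to 0.00314 in Ly6Chigh and 0.000443 to 0.000849 in Ly6Clow. Of the 3 lymphocyte markers measured, miR-150 and miR-181a were detected in all 6 samples. miR-342-3p was detected in 5, and not in the Ly6Chigh sample of mouse 1. Their sums were 0.206 to 1.89 in Ly6Chigh and 0.508 to 1.76 in Ly6Clow. The paper describes miR-150 in mouse monocytes and miR-342-3p in human ones, so these sums do not measure lymphocytes alone. The platelet and endothelial marker miR-126-3p had levels of 0 to 0.0125 in Ly6Chigh and 0.000944 to 0.00334 in Ly6Clow. It was undetected in the Ly6Chigh sample of mouse 1, and in log2 higher in Ly6Chigh by 1.90 in mouse 2 and 1.84 in mouse 3. The part of lymphocytes and platelets in the family values was not tested.

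The assays outside the family with the pattern most like that of its 2 fully detected members were named from the 40 card A assays under 35 cycles in all 6 samples, on Ct less the median of those assays. For miR-15b these were miR-148a, miR-103 and miR-331-3p, with a Pearson r of 1.00, 0.97 and 0.94 over 6 samples and of 1.00, 0.81 and 0.86 over the 5 samples without the Ly6Chigh sample of mouse 1. For miR-15a they were let-7b, miR-148b and miR-192, with 0.99, 0.92 and 0.88 over 6 samples. Without that sample r was 1.00 for let-7b, -1.0 for miR-148b and -0.29 for miR-192, so the likeness of both of these rested on 1 sample. The points share cards and steps of 1 cycle, which limits what r can show.

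Across 20 other processing settings the miR-15/16 family again had 0 assays past the adjusted threshold. miR-195 stayed below 0 in all 19 settings in which it was fitted, from -7.12 to -0.11. The settings without the Ly6Chigh reaction of mouse 1 gave -0.11 or -0.12, under the step of 1 cycle. The larger negative values rest on the floor of that reaction. miR-15b ranged from -1.67 to 2.06 and miR-16 from -9.62 to 0.38, and for miR-16 each value above 0 came from a setting without the Ly6Chigh reaction of mouse 1.

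**Figure D5:**
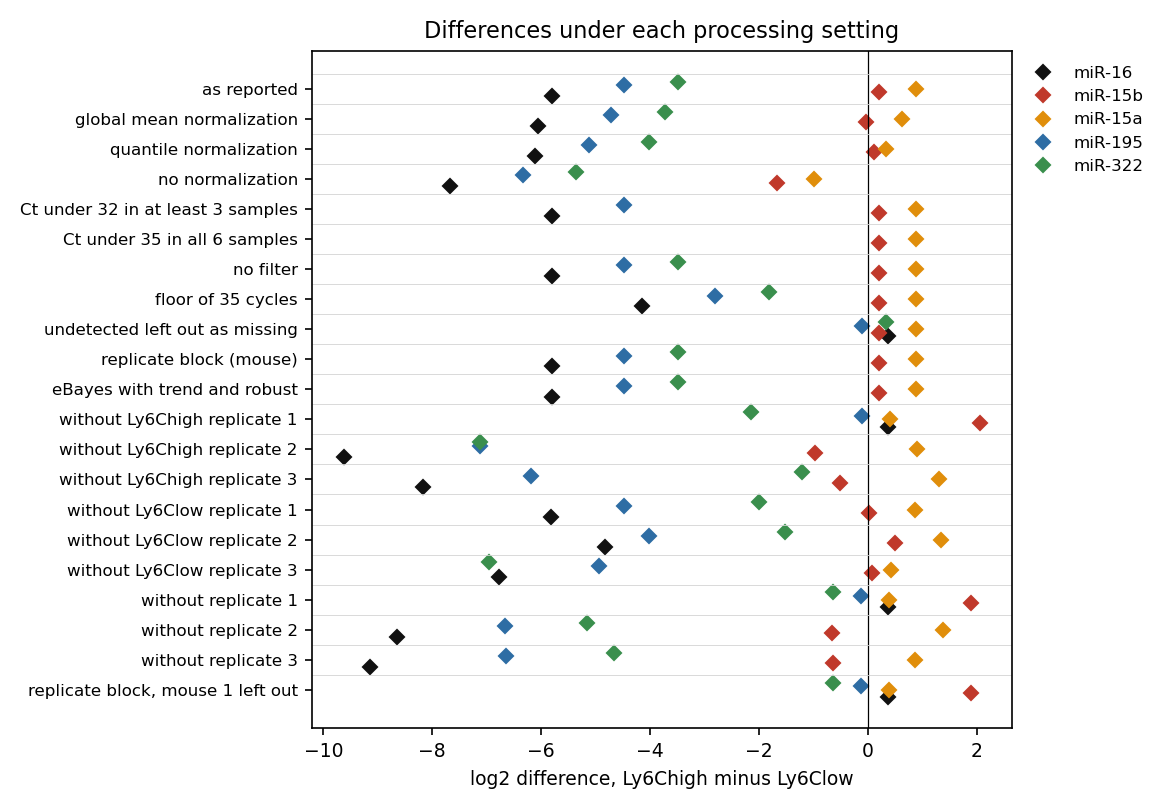
Log2 difference of Ly6Chigh minus Ly6Clow of the 5 tested members (diamonds) under the reported setting and 20 alternatives, 1 per row, where a missing diamond means that the member did not pass that filter. miR-15b is highest, at 2.06, without the Ly6Chigh sample of mouse 1, and miR-16 lies between -9.62 and -4.14 wherever its undetected reaction is kept.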

How the data were processed

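The authors deposited raw Ct, in effect log2 values that fall as template rises, and ΔCt, for which they subtracted the U6 Ct of the same sample and card. A further table of within-mouse ratios holds the authors' own comparison and was not used. The software and threshold behind the Ct are not given in the sources used here, and the labels name only the primer pool of 1 of the 2 cards. Log2 expression was taken as minus ΔCt, with undetected reactions (Ct of 40) kept at their deposited value. The test covered 201 of 750 miRNA assays, those under 35 cycles in 3 or more of the 6 samples (card A held 127 and card B 74), without the 18 control wells. It was run in limma 3.58.1 under R 4.3.3 (lmFit, eBayes) with Benjamini-Hochberg adjustment over the 201 assays, a threshold of 0.05 and no block for the mouse. Single members and pairs were compared by 2-sided exact permutation over samples (scipy 1.17.1), which cannot go below 0.1 with 3 samples against 3 or 0.2 with 2 against 3. Tables were made with Python 3.11.15, pandas 2.3.3 and numpy 2.4.6, and plots with matplotlib 3.10.9. The limma steps were tested on simulated data. These were drawn without floors, steps of 1 cycle or shared mice, so that test does not bear on those features.

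Samples of the same number come from 1 mouse per their titles, and their deviations from the subset means correlated at 0.32, 0.62 and 0.72 over the 201 assays. The family members and all marker lists were chosen with earlier results of these data known. Named miRNAs were the members, their relatives, the tested assays of each list and, for each member with signal in all samples, the 3 assays most like it. The number of arrays limits the precision.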

Additional observations from a re-analysis of the deposited data

Results flagged for a closer look

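A plant control assay on card B, for a miRNA that mice lack, gave a Ct of 33.97 in the Ly6Clow sample of mouse 2 and lies outside all comparisons made. The same sample and card held the single signal for the opposite strand of miR-16 (Ct 30.94) and the lowest Ct of the opposite strand of miR-15a (31.98). Whether these 2 signals share anything with that of the control was not tested.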

How the results depend on the processing

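No family assay passed the adjusted threshold under any of the 20 alternatives, in which limma found 0 assays past it overall. The number of assays with an unadjusted p under 0.05, 2 as reported, was 1 with the filter of Ct under 32, with a floor of 35 cycles and with eBayes with trend and robust, 9 with no filter (750 assays) and with undetected reactions as missing, 16 with mouse 1 left out and a replicate block, and 1 to 4 when samples or mice were left out in turn. miR-15a turned to -0.99 and miR-15b to -1.67 without normalization, where the median of all tested assays was -2.32, against -0.45 as reported, and miR-15b to -0.04 with the global mean. With undetected reactions as missing, miR-16 was 0.38 and miR-322 was 0.33. With the mouse as a replicate block in the paired design, no call changed, the differences were the same, and the lowest adjusted p in the family was 0.949. With a replicate block and mouse 1 left out, miR-16 was 0.37. Leaving out samples or mice in turn, miR-15b ranged from -0.96 to 2.06 (below 0 without the Ly6Chigh sample of mouse 2, at -0.96, or mouse 3, at -0.51, and without either mouse) and miR-16 from -9.62 to 0.38. Each miR-15b value below 0 there kept the Ly6Chigh sample of mouse 1. The filter of Ct under 35 in all samples removed miR-16, miR-195 and miR-322, and that of Ct under 32 removed miR-322. The change in distance to miR-16 ranged from 0.02 to 10.53 cycles for miR-15a and from 1.68 to 8.66 for miR-15b. The lowest values, 0.02 and 1.68, came from leaving out the Ly6Chigh sample of mouse 1, and 0.02 is under the step of 1 cycle. The other settings kept that sample, in which miR-16 was undetected, so the larger values rest on its floor. The cause of these changes was not tested. Steps of about 1 cycle, and the few samples with signal, limit what can be read from miR-322 and miR-497.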
